A study of Homo sapiens with 6 samples.

Results

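The genes described here are 34 genes of mitochondrial fatty acid oxidation and ketone metabolism, taken by gene name from the deposited count table of 58735 genes. They cover fatty acid activation and import, the dehydrogenases and later steps of beta-oxidation, electron transfer, ketone bodies, acyl-CoA thioesterases and 3 genes around the pathway. The study measured polyadenylated RNA in HepaRG, an established human liver cell line whose progenitor cells mature in DMSO into hepatocyte-like and biliary-like cells. In all 6 libraries the cells had matured in 1.8% DMSO, had received siRNA 48 h earlier and had then been loaded over 24 h with 800 µM oleic acid together with palmitic acid at 400 µM. The treatment is written as PTPF in 3 libraries and as STATF in the other 3, and neither short name is explained. The protocols name siRNAs against STAT3 and PTPRD and a control siRNA, but no control-siRNA library and no library without fatty acids was analysed here.

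Long-chain fatty acids are first joined to coenzyme A and then passed to carnitine by CPT1 at the outer mitochondrial membrane, a step that is known to set the rate of the pathway. A carrier moves the acylcarnitine inward, CPT2 restores the acyl-CoA, and a cycle of dehydrogenation, hydration, a further dehydrogenation and thiolysis releases acetyl-CoA. Electrons leave through FAD-linked dehydrogenases and the electron transfer flavoprotein, and in liver much of the acetyl-CoA becomes ketone bodies for use elsewhere. Many of these genes are known targets of PPARA, a nuclear receptor activated by fatty acids, together with its coactivator PPARGC1A.

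STAT3, the transcription factor named as an siRNA target, stood at 435, 436 and 457 CPM in the PTPF-labelled and 114, 132 and 113 CPM in the STATF-labelled libraries. On the log2 scale, PTPF minus STATF, the difference was 1.89 (SE 0.063, edgeR adjusted p = 2.47e-18). PTPRD, the receptor-type tyrosine phosphatase that was the other target, averaged 11.5 ± 1.36 CPM under PTPF against 11.5 ± 0.602 CPM under STATF (SD, n = 3 each), with overlapping groups and a log2 fold change of 0.00 (95% interval -0.19 to 0.19, edgeR adjusted p = 0.999). A two-sided exact permutation test over libraries gave p = 0.1 for STAT3, its lower limit at this group size, and p = 1 for PTPRD. Because PTPRD was not lower in the PTPF-labelled libraries, every direction below is between libraries by label. CPM here means counts per 1000000 of the library total, scaled by edgeR's TMM factors. Total counts were 33225627 to 40796767 per library.

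Across the members, 33 of 34 passed the filter on low counts, and 16 of these were lower and 1 was higher in the PTPF-labelled libraries at an edgeR adjusted p under 0.05. Among all 17844 genes tested, 11.6% were lower and 10.1% higher by the same rule, and 21.6% passed in either direction. Among the 12201 genes with a mean of at least 100 counts, a level that 31 members reach, 14.8% were lower and 13.4% higher. The median log2 fold change of the 33 members was -0.19, against 0.00 for all genes tested. Most of the differences were small: of the 16 lower members 1 was lower by more than 1.5-fold, 12 by 1.2-fold to 1.5-fold and 3 by less than 1.2-fold, with a median reduction of 21.8%. Below -0.25 on the log2 scale were 14 of the 16, and 8.74% of all genes tested passed with such a value. Groups did not overlap in 20 members with lower and 1 with higher PTPF-labelled libraries, while 18.4% and 17.3% of all genes tested were separated in these directions and 35.7% in either. Nothing in the labels says that replicates are independent cultures, so the p-values rest on a spread between libraries that may be technical.

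**Figure D1:**
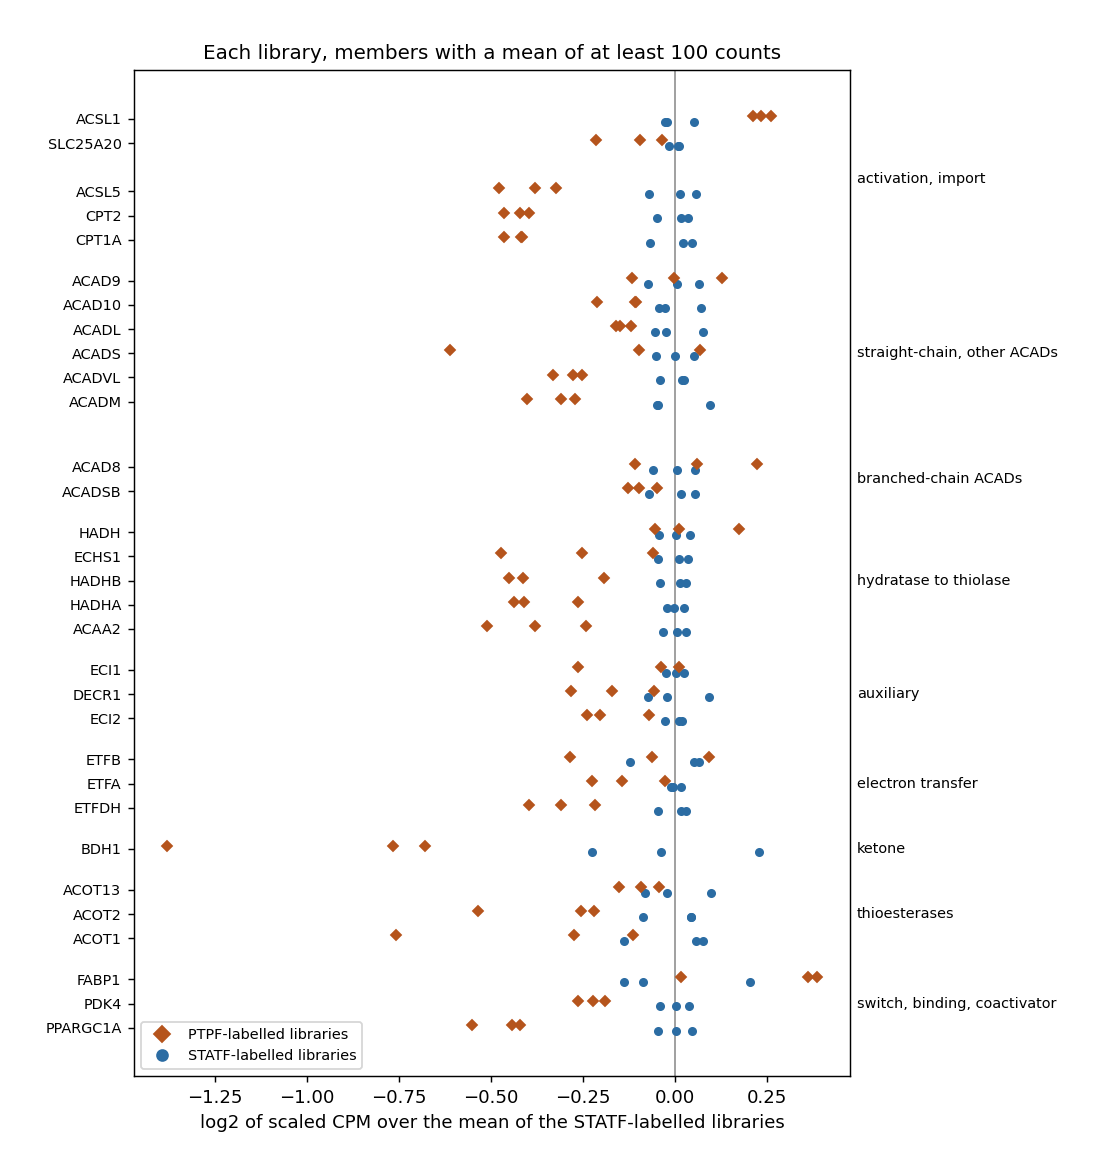
Each point is 1 library, plotted on the horizontal axis as the log2 of its scaled CPM over the mean of the 3 STATF-labelled libraries, for the 31 members with a mean of at least 100 counts, grouped by role on the vertical axis. Diamonds (PTPF-labelled) lie left of all circles (STATF-labelled) for members such as CPT1A, CPT2, HADHA and PPARGC1A, and right of them for ACSL1.

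ACSL1 and ACSL5, which join long-chain fatty acids to coenzyme A, differed in opposite directions. ACSL1 stood at 3419, 3305 and 3358 CPM in the PTPF-labelled and 2802, 2958 and 2810.4 CPM in the STATF-labelled libraries. Every PTPF-labelled library was above every STATF-labelled one, with a log2 difference of 0.23 ± 0.062 (SE; edgeR adjusted p = 0.00615). That call ended when STATF replicate 3 was left out (0.22, edgeR adjusted p = 0.0538). ACSL5 stood at 254, 228 and 244 CPM in the PTPF-labelled and 321, 303 and 331 CPM in the STATF-labelled libraries, again without overlap, and its log2 fold change was -0.39 ± 0.058 (SE; edgeR adjusted p = 9.57e-06). The ratio of ACSL1 to ACSL5 counts within a library, which does not depend on scaling between libraries, was 13.5, 14.5 and 13.7 in the PTPF-labelled and 8.73, 9.77 and 8.50 in the STATF-labelled libraries. It was thus 1.54 times higher under the PTPF label, and its groups did not overlap.

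ACSL1 lies on chromosome 4 from 184755595 to 184826818 of GRCh38 (minus strand) and ACSL5 on chromosome 10 from 112374018 to 112428380 (plus strand). Since these paralogs separated by label, their upstream bases and those of the other members were searched for the STAT palindrome TTCNNNGAA and for the nuclear receptor half-site AGGTCA, on both strands. Of 34 members 29 had a RefSeq window of 250 bases before a start (build GRCh38.p14), 42 windows in all. The palindrome was found in 3 of the 42 windows, before ACSL1, ACAD8 and ACADS, and in 6.57% of the 35116 windows of all genes. The half-site was found in 3 of the 42 windows, before ACAD10, ACSL5 and FABP1, and in 12.1% of all windows. A direct repeat of the half-site with 1 free base between its copies was found before no member and in 0.0171% of all windows. A GC box (GGGCGG) lay in 25 of the 42 windows, before 22 members, and in 42.6% of all windows. A CCAAT box (CCAAT) lay in 6 of the 42 windows, before 6 members, and in 32.0% of all windows. The windows of ACSL1 and ACSL5 that hold a match are shown without bases of annotated exons, 5′ to 3′ on the gene's strand, with the match in capitals. That of ACSL1, from chr4:184812260-184812501 (minus strand), precedes 1 of its 5 listed starts, and that of ACSL5, from chr10:112375018-112375234 (plus strand), precedes 1 of 2.
ACSL1: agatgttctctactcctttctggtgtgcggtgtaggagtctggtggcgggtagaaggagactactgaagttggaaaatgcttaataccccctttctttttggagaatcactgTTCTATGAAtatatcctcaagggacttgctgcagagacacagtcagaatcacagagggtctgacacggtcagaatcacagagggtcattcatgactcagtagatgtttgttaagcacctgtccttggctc
ACSL5: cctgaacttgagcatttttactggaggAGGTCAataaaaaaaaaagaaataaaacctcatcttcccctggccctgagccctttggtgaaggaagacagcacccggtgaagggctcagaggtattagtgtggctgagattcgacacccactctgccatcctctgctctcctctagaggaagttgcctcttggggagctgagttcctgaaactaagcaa
These matches describe the letters in the windows and say nothing of binding. ACAD8 and ACADS, which also carry the palindrome, and ACAD10 and FABP1, which also carry the half-site, did not pass the test. Whether a match bears on a member's difference was not tested.

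Both main enzymes of carnitine-dependent import in liver, CPT1A and CPT2, were lower. CPT1A, the liver form of the enzyme that makes acylcarnitine, stood at 205, 212 and 211 CPM in the PTPF-labelled and 287, 292 and 269.6 CPM in the STATF-labelled libraries. The lowest STATF-labelled library was well above the highest PTPF-labelled one, and the log2 fold change was -0.43 ± 0.055 (SE; edgeR adjusted p = 9.36e-07), or 25.9% lower. CPT2, which reverses the reaction inside, stood at 45.8, 43.7 and 45.0 CPM in the PTPF-labelled and 60.9, 61.7 and 58.3 CPM in the STATF-labelled libraries, with a log2 difference of -0.43 ± 0.057 (SE; edgeR adjusted p = 2.02e-06). The CPT1A to CPT2 count ratio was 4.67 ± 0.193 under PTPF and 4.69 ± 0.0534 under STATF (SD over 3 libraries each), and these groups overlapped. SLC25A20, the carrier that works between them, stood at 63.2, 55.9 and 60.7 CPM in the PTPF-labelled and 65.4, 64.0 and 65.1 CPM in the STATF-labelled libraries. Its groups did not overlap, but the log2 fold change of -0.11 (95% interval -0.23 to 0.01) did not pass (edgeR adjusted p = 0.177). CPT1B, the muscle form, had only 20, 15 and 40 counts in the PTPF-labelled and 24, 38 and 34 counts in the STATF-labelled libraries, and 66.4% of its exon bases also belong to other genes, chiefly the readthrough gene CHKB-CPT1B, so its level and its log2 fold change of -0.15 (95% interval -0.86 to 0.56) are uncertain.

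The acyl-CoA dehydrogenases, which open each round of oxidation and differ in the chain length they take, were split between members that passed and members that did not. ACADVL, the enzyme for very long chains, stood at 908, 859.5 and 893 CPM in the PTPF-labelled and 1100.0, 1051 and 1096 CPM in the STATF-labelled libraries (log2 fold change -0.29, SE 0.058, edgeR adjusted p = 5.21e-04). ACADM, for medium chains, stood at 117, 107 and 114 CPM in the PTPF-labelled and 137, 137 and 151 CPM in the STATF-labelled libraries (log2 fold change -0.33, SE 0.057, edgeR adjusted p = 9.71e-05). In both genes all PTPF-labelled libraries were below all STATF-labelled ones. ACADL, for long chains, had a log2 fold change of -0.14 without overlap (edgeR adjusted p = 0.0958), and ACADS, for short chains, had -0.19 with overlapping groups (edgeR adjusted p = 0.333). In ACADS a single library was low, at 8.85, 5.53 and 7.90 CPM in the PTPF-labelled and 8.44, 8.16 and 8.76 CPM in the STATF-labelled libraries. ACAD9, which also serves in the assembly of respiratory complex I, was at 29.3 ± 2.48 CPM under PTPF against 29.2 ± 1.41 CPM under STATF (SD, n = 3 each), a log2 fold change of 0.01 (95% interval -0.14 to 0.15). ACAD10 had -0.14 (edgeR adjusted p = 0.114). ACAD11 had 8, 21 and 17 counts in the PTPF-labelled and 22, 25 and 30 counts in the STATF-labelled libraries, and 83.8% of its exon bases are shared with other genes. Its log2 fold change of -0.56 (95% interval -1.31 to 0.19) did not pass (edgeR adjusted p = 0.312). ACADSB and ACAD8, dehydrogenases of branched-chain amino acid catabolism, had log2 fold changes of -0.09 (95% interval -0.21 to 0.03) and 0.06 (-0.09 to 0.22), and the groups overlapped in both.

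Of the 5 genes for the hydration, second dehydrogenation and thiolysis steps, 4 were lower. HADHA and HADHB encode the alpha and beta subunits of the mitochondrial trifunctional protein, which carries out these steps on long chains. HADHA stood at 568, 503 and 513 CPM in the PTPF-labelled and 681, 672 and 693 CPM in the STATF-labelled libraries (log2 fold change -0.37, SE 0.060, edgeR adjusted p = 3.39e-05). HADHB stood at 409.8, 343 and 352 CPM in the PTPF-labelled and 473, 455 and 478 CPM in the STATF-labelled libraries (log2 fold change -0.35, SE 0.064, edgeR adjusted p = 1.63e-04). Their count ratio was 1.44 ± 0.0452 under PTPF and 1.46 ± 0.0190 under STATF (SD over 3 libraries each), with overlapping groups. These genes face away from each other on chromosome 2, with RefSeq start sites at 26244632 for HADHA on the minus strand and at 26244939 for HADHB on the plus strand, 307 bases apart.

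ACAA2, the thiolase for shorter chains, stood at 208, 173 and 189 CPM in the PTPF-labelled and 251, 241 and 247 CPM in the STATF-labelled libraries (log2 fold change -0.37, SE 0.061, edgeR adjusted p = 4.21e-05). ECHS1, the short-chain hydratase, stood at 166, 125 and 145 CPM in the PTPF-labelled and 177, 167 and 174 CPM in the STATF-labelled libraries (log2 fold change -0.25, SE 0.077, edgeR adjusted p = 0.0243). Its groups were separated by a narrow gap, and without PTPF replicate 2, the lowest library, the log2 fold change was -0.15 (edgeR adjusted p = 0.0900). The ECHS1 call also ended without PTPF replicate 3, STATF replicate 1 or STATF replicate 3 (edgeR adjusted p = 0.0789, 0.0959 and 0.0801), where the log2 fold change was -0.25, -0.24 and -0.25. HADH, which performs the second dehydrogenation on short and medium chains, was at 72.0 ± 5.95 CPM under PTPF against 69.8 ± 2.04 CPM under STATF (SD, n = 3 each), with a log2 fold change of 0.05 (95% interval -0.08 to 0.17) and overlapping groups.

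**Figure D2:**
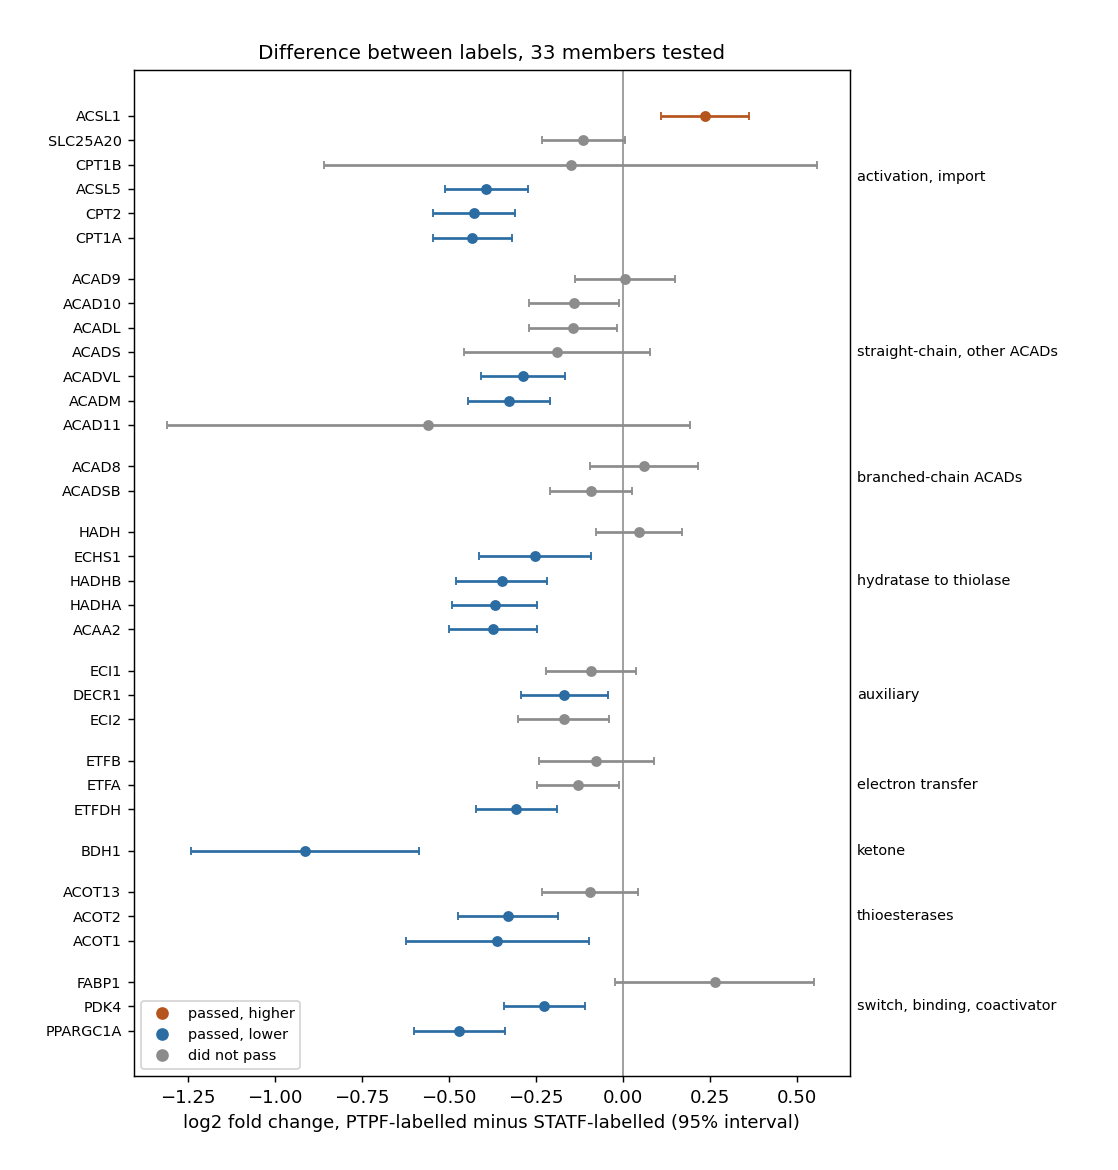
The horizontal axis gives the log2 fold change of PTPF-labelled minus STATF-labelled libraries for the 33 members tested, with 95% intervals from the edgeR fit, and the vertical axis lists the members by role. BDH1 has the lowest value among members that passed (-0.91), ACSL1 (0.23) is the member that passed on the higher side, and the intervals of CPT1B and ACAD11 are the widest, on low counts.

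Among the auxiliary enzymes for unsaturated fatty acids, DECR1, a dienoyl-CoA reductase, stood at 135, 115 and 124 CPM in the PTPF-labelled and 138, 133 and 149 CPM in the STATF-labelled libraries. One STATF-labelled library lay below the highest PTPF-labelled one, and the log2 fold change was -0.17 ± 0.061 (SE; edgeR adjusted p = 0.0496). The DECR1 call ended when any library but PTPF replicate 1 was left out. The log2 fold change was smaller without PTPF replicate 2 (-0.11, edgeR adjusted p = 0.246) and without STATF replicate 3 (-0.12, edgeR adjusted p = 0.277). It was -0.17 without PTPF replicate 3, -0.18 without STATF replicate 1 and -0.20 without STATF replicate 2 (edgeR adjusted p = 0.124, 0.101 and 0.0536). The isomerases ECI1 and ECI2 had log2 fold changes of -0.09 and -0.17 (edgeR adjusted p = 0.33 and 0.0558). ECI2 shares 29.8% of its exon bases with genes on the opposite strand, and the strand setting of the counting is not given in the sources used here.

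Of the 3 electron transfer genes 1 was lower. ETFDH, the oxidoreductase that passes electrons to ubiquinone, stood at 116, 102 and 109 CPM in the PTPF-labelled and 137, 131 and 136 CPM in the STATF-labelled libraries, without overlap (log2 fold change -0.31, SE 0.057, edgeR adjusted p = 1.82e-04). ETFA and ETFB, the subunits of the flavoprotein that feeds it, had log2 fold changes of -0.13 (95% interval -0.25 to -0.01) and -0.08 (-0.24 to 0.09) and did not pass (edgeR adjusted p = 0.108 and 0.552). The ETFA to ETFB count ratio was 2.79 ± 0.187 and 2.89 ± 0.193 under the PTPF and STATF labels (SD over 3 libraries each). Those groups overlapped.

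Of the ketone body genes among the members, BDH1 showed the largest reduction of any member that passed. BDH1, which converts acetoacetate to beta-hydroxybutyrate, stood at 5.97, 3.68 and 5.63 CPM in the PTPF-labelled and 9.32, 8.18 and 11.2 CPM in the STATF-labelled libraries. All PTPF-labelled libraries were below all STATF-labelled ones, and the log2 fold change was -0.91 ± 0.156 (SE; edgeR adjusted p = 2.62e-04), or 46.9% lower, on 135 to 420 counts per library. OXCT1, which starts the use of ketone bodies and is known to be scarce in hepatocytes, had 4, 4 and 3 counts in the PTPF-labelled and 9, 13 and 16 counts in the STATF-labelled libraries, too few to enter the test. Without the filter its log2 fold change was -1.58 with an edgeR adjusted p of 0.108.

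Acyl-CoA thioesterases, which release free fatty acids from coenzyme A, included the near-identical neighbours ACOT1 and ACOT2 on chromosome 14, the first cytosolic and the second mitochondrial. ACOT2 stood at 71.2, 58.6 and 72.8 CPM in the PTPF-labelled and 87.5, 79.9 and 87.5 CPM in the STATF-labelled libraries (log2 fold change -0.33, SE 0.069, edgeR adjusted p = 0.00101). ACOT1 stood at 8.67, 6.21 and 9.70 CPM in the PTPF-labelled and 11.1, 9.52 and 10.9 CPM in the STATF-labelled libraries, with 1 STATF-labelled library under the highest PTPF-labelled one (log2 fold change -0.36, SE 0.126, edgeR adjusted p = 0.0454). The ACOT1 call ended without PTPF replicate 2, where the log2 fold change was -0.18 (edgeR adjusted p = 0.268). It also ended without PTPF replicate 1, STATF replicate 1 or STATF replicate 3 (edgeR adjusted p = 0.0720, 0.152 and 0.145), where the log2 fold change was -0.41, -0.32 and -0.33. Of all 50-base stretches in its annotated transcripts, ACOT1 shares 53.1% and ACOT2 37.3% with another gene, so the split of reads between them is uncertain. ACOT13 had -0.10 (95% interval -0.23 to 0.04).

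The remaining members act around the pathway. PPARGC1A, the coactivator that induces oxidation genes, stood at 26.2, 28.2 and 28.7 CPM in the PTPF-labelled and 37.2, 39.6 and 38.4 CPM in the STATF-labelled libraries, without overlap (log2 fold change -0.47, SE 0.064, edgeR adjusted p = 2.55e-06). PDK4, the kinase that turns off pyruvate dehydrogenase when fat is burned, stood at 581, 568 and 552 CPM in the PTPF-labelled and 665, 644 and 682 CPM in the STATF-labelled libraries (log2 fold change -0.23, SE 0.057, edgeR adjusted p = 0.0042). Its reduction of 14.5% was smaller than that of CPT1A, and the PDK4 to CPT1A count ratio was higher in all PTPF-labelled libraries, at 2.84, 2.68 and 2.61 against 2.32, 2.21 and 2.53. FABP1, the abundant fatty acid binding protein of hepatocytes, stood at 638, 503 and 649.7 CPM in the PTPF-labelled and 468, 452 and 572 CPM in the STATF-labelled libraries. Its groups overlapped, and its log2 fold change of 0.26 (95% interval -0.02 to 0.55) did not pass (edgeR adjusted p = 0.191). FABP1 passed without PTPF replicate 2 (0.38, edgeR adjusted p = 0.00156) and without STATF replicate 3 (0.38, edgeR adjusted p = 0.00804).

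**Figure D3:**
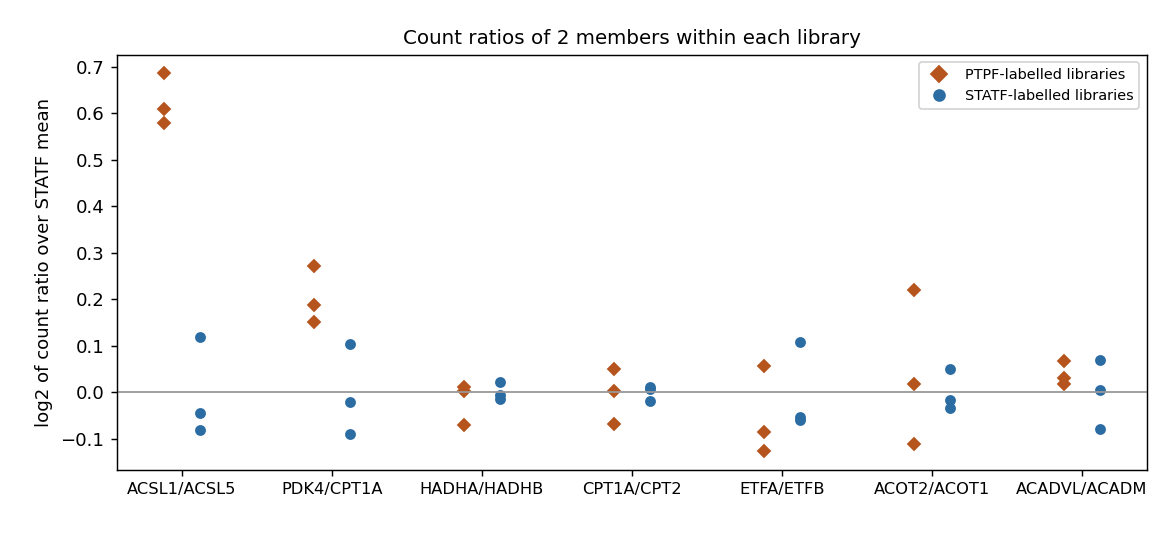
The vertical axis gives the log2 of the count ratio of the pair named on the horizontal axis over its mean in the STATF-labelled libraries, with 1 point per library. ACSL1/ACSL5 and PDK4/CPT1A were higher in all PTPF-labelled libraries, while the groups overlapped for HADHA/HADHB, CPT1A/CPT2, ETFA/ETFB, ACOT2/ACOT1 and ACADVL/ACADM.

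The 7 pairs in the plot of count ratios were chosen after the values were seen, so they carry no test. ACADVL and ACADM kept a ratio of 7.88 ± 0.144 under PTPF and 7.67 ± 0.391 under STATF (SD over 3 libraries each). Their groups overlapped.

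Levels between genes are given as TPM, counts per deposited gene length scaled to 1000000 per library. ACSL1 was the most abundant member at 1239 TPM on average over the 6 libraries (range 1124 to 1334). FABP1 (554, range 469 to 657) and ACADVL (509, range 440.4 to 590.2) followed, and the order of their means turned with the label. FABP1 averaged 592 and ACADVL 447 TPM under PTPF, against 515 and 570.2 TPM under STATF. HADHA and PDK4 came next, at 295 and 308 TPM under PTPF and 399 and 376 TPM under STATF. ECHS1 and HADHB followed, at 219.96 ± 24.9 and 211 ± 13.5 TPM under PTPF (SD, n = 3 each). Under STATF they were at 274 ± 10.6 and 280.5 ± 7.73 TPM. The order of the means turned in these pairs too, but that of ECHS1 and HADHB is not resolved at this spread. Nor is that of FABP1 and ACADVL resolved under STATF (SD 59.3 and 18.3 TPM, n = 3 each). The same holds for HADHA and PDK4 under PTPF (SD 9.38 and 6.24 TPM, n = 3 each). CPT1A at 94.4 TPM was far above CPT1B at 0.479 TPM, and BDH1 at 2.03 TPM was the least abundant member whose groups passed the test. At the bottom stood OXCT1 at 0.131 TPM. Deposited lengths join all annotated exons of a gene, so the level of a gene with many long transcript forms, such as HADH with a length of 12086 bases, is understated. Over the 33 members, mean TPM (log2) and the log2 fold change had a Spearman correlation of 0.10 and a Pearson correlation of 0.32. Both are given as descriptions across genes that share the same 6 libraries.

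**Figure D4:**
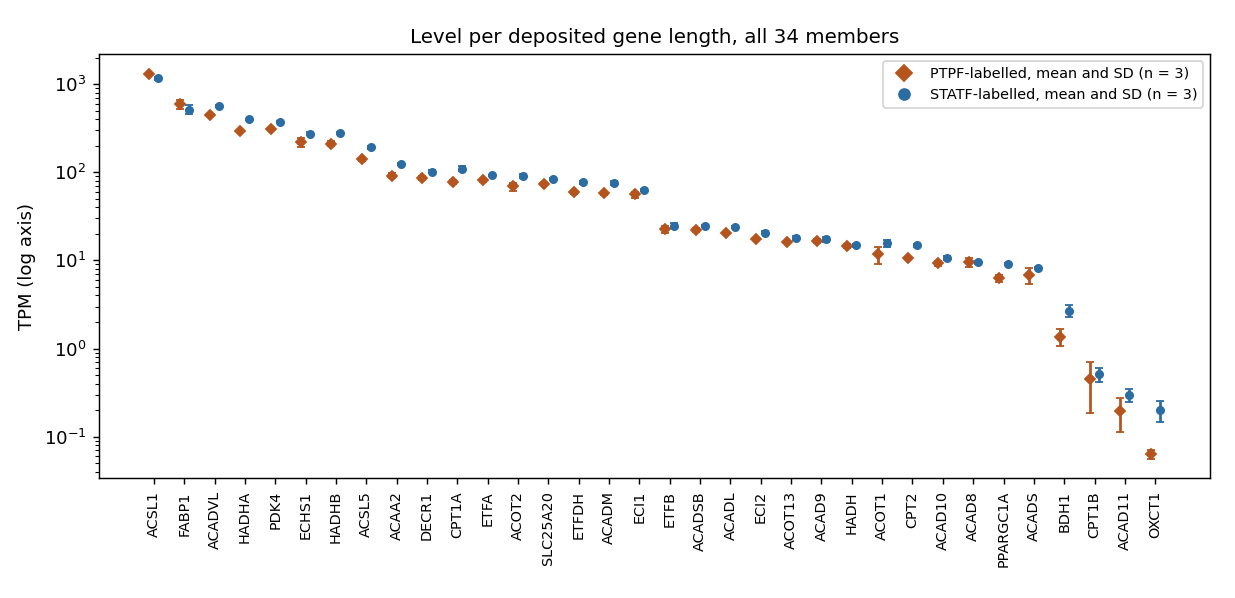
Mean TPM with SD (n = 3 libraries per label) on a log axis for all 34 members, ordered from the highest to the lowest mean over the 6 libraries. ACSL1 leads at 1239 TPM and OXCT1 is last at 0.131 TPM, and differences between labels are to be read from the scaled CPM, since TPM also moves with the rest of each library.

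Summed over all members, the scaled level was 7926 to 8610 CPM in PTPF-labelled and 8553 to 8738 CPM in STATF-labelled libraries, and these ranges overlapped. Without ACSL1, the most abundant member, the ranges were 4621 to 5191 and 5595 to 5927 CPM and did not overlap. ACSL1 was also the only member that passed on the higher side, so leaving it out favours a lower sum under PTPF. Exon bases shared with another gene made up 10.5% to 13.8% in ETFDH, ACOT13, CPT2 and ACAD9, all with genes on the opposite strand, and 13.3% of the 50-base stretches of ACAA2 occur in another gene. In bulk RNA, fewer cells of a type and less RNA per cell cannot be told apart. Within its group PTPF replicate 2 had the lowest value in 26 of the 33 members tested, against 33.2% of all genes tested, and STATF replicate 2 in 22 of 33, against 31.7%. When PTPF replicate 2 was left out, 13 members were lower and 2 higher, and their median was -0.15 (log2). When STATF replicate 2 was left out, 15 were lower and 1 higher, and the median was -0.22.

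Markers of the cells were read beside these values. All 11 hepatocyte markers were detected in every library, with ALB at 11995 ± 797 CPM under PTPF against 14853 ± 549 CPM under STATF (SD over 3 libraries each). Of these markers 6 were lower and 2, SERPINA1 and ASGR1, were higher in PTPF-labelled libraries. Their summed level was 42135 to 48871 CPM under PTPF and 40132 to 41016 CPM under STATF. The 8 biliary or progenitor markers summed to 302 to 336 and 289.6 to 307 CPM, and the 8 mesenchymal markers to 52.1 to 68.6 and 53.9 to 72.2 CPM. The 5 endothelial markers summed to 33.2 to 39.1 and 57.1 to 61.2 CPM, nearly all of it KDR, and the 5 immune markers to 12.6 to 15.5 and 7.66 to 8.95 CPM, nearly all of it CD14. CDH5 and PTPRC, which define endothelial and immune cells, each had at most 1 count in any library, and EPCAM was at 0 in all 6. The 8 markers of fat and muscle summed to under 1 CPM in every library. Mitochondrially encoded transcripts took 17.6% to 18.5% of counts in PTPF-labelled and 18.7% to 19.5% in STATF-labelled libraries. The part of these differences in the members' values was not tested. Leaving out the mitochondrial genome kept 16 members lower and 1 higher, but that refit mainly changes library totals and scaling. It cannot show what part mitochondrial content or the mix of cells has.

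Outside the members, 13 lists of related genes held 166 genes that were tested, of which 48 were lower and 16 higher. Over all genes tested, inside and outside the lists, the shares were 11.6% lower and 10.1% higher. Some genes are in more than 1 list, and values in parentheses are log2 fold changes. The other ketone body genes had 2 lower and 2 higher of 8. Higher were SLC16A7 (0.57), a transporter of monocarboxylates, and AACS (0.17), which returns acetoacetate to lipid synthesis.

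Nuclear receptors and coregulators of the pathway had 4 higher and 4 lower of 21. CREB3L3, a liver transcription factor that acts with PPARA, was higher (0.93), as was the PPARGC1A relative PPRC1 (0.36). PPARD (0.22) and TFAM (0.20), also higher, and NCOR1 (-0.22), which was lower, were named after their values were seen. The orphan receptor ESRRA (-0.21) and the deacylase SIRT5 (-0.33) were lower. PPARA, named after its value was seen, stood at 99.0, 119 and 126 CPM in the PTPF-labelled and 133, 139.6 and 128 CPM in the STATF-labelled libraries (log2 fold change -0.22, SE 0.071, edgeR adjusted p = 0.0311), without overlap. Genes known to be induced by PPARA, apart from the members, had 8 lower and 3 higher of 16, with a median of -0.29. EHHADH, a peroxisomal enzyme, stood at 149, 129.9 and 152 CPM in the PTPF-labelled and 203, 202 and 204 CPM in the STATF-labelled libraries, and the omega-hydroxylase CYP4A22 had -2.02, though its sequence is close to that of CYP4A11. Against these, the lipid droplet protein PLIN5 was higher (15.9 ± 0.801 CPM under PTPF against 6.98 ± 0.461 CPM under STATF, SD, n = 3 each), as was TXNIP (0.21), named after its value was seen. Genes that set the level of malonyl-CoA, the inhibitor of CPT1, and the AMPK subunits had 2 lower of 9, the AMPK subunit PRKAB2 (-0.31) and the carboxylase ACACB (-0.24), which makes malonyl-CoA at mitochondria.

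Peroxisomal beta-oxidation, which shortens very long chains, had 9 lower and 2 higher of 20, the latter being SCP2 (0.25) and SLC27A2 (0.21), named after their values were seen. Its thiolase ACAA1 had a log2 fold change of -0.53. Carnitine genes had 2 lower and 1 higher of 6, with BBOX1, the last enzyme of carnitine synthesis, at 17.8 ± 1.62 CPM under PTPF against 30.6 ± 1.90 CPM under STATF (SD, n = 3 each) and the carnitine transporter SLC22A5 at -0.20 on the log2 scale. SHMT1, which can act in carnitine synthesis, was the higher gene (0.25). Other fatty acid synthetases, transporters and binding proteins had 7 lower and 1 higher of 19, among them SLC27A3 (-0.81), ACSL3 (-0.26) and ACSM2A (-0.32), which is near-identical to ACSM2B. The higher gene was the mitochondrial acetyl-CoA synthetase ACSS1 (1.33). Other thioesterases had 2 lower of 7, ACOT7 (-0.35) and ACOT9 (-0.22).

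Of 17 citric acid cycle genes 5 were lower, with OGDH (-0.47), SDHA (-0.36) and CS (-0.30) among them, and 1 was higher. Also past the test were DLST (-0.29), which was lower, and SUCLG2 (0.22), which was higher, both named after their values were seen. The pyruvate dehydrogenase complex with its kinases and phosphatases had 5 lower and 2 higher of 11. Its subunits DLAT (-0.30) and PDHA1 (-0.26) and the kinase PDK2 (-0.42) were lower, and the kinase PDK1 (0.33) was higher. PDP1 (-0.21) and PDK3 (-0.22), also lower, and PDP2 (0.24), also higher, were named after their values were seen. Odd-chain and branched-chain catabolism had 3 lower, IVD (-0.29), HIBADH (-0.21) and MCCC1 (-0.17), and 1 higher, MMAB (0.21), of 19. Accessory genes of flavin supply, flavoprotein function and complex I assembly had 1 lower of 10, the riboflavin transporter SLC52A3 (-0.70). Mitochondrial fatty acid synthesis and lipoylation had none past the test of 9 in edgeR, DESeq2 or limma-voom, and 1 gene had an unadjusted p under 0.05 with each of these tools.

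**Figure D5:**
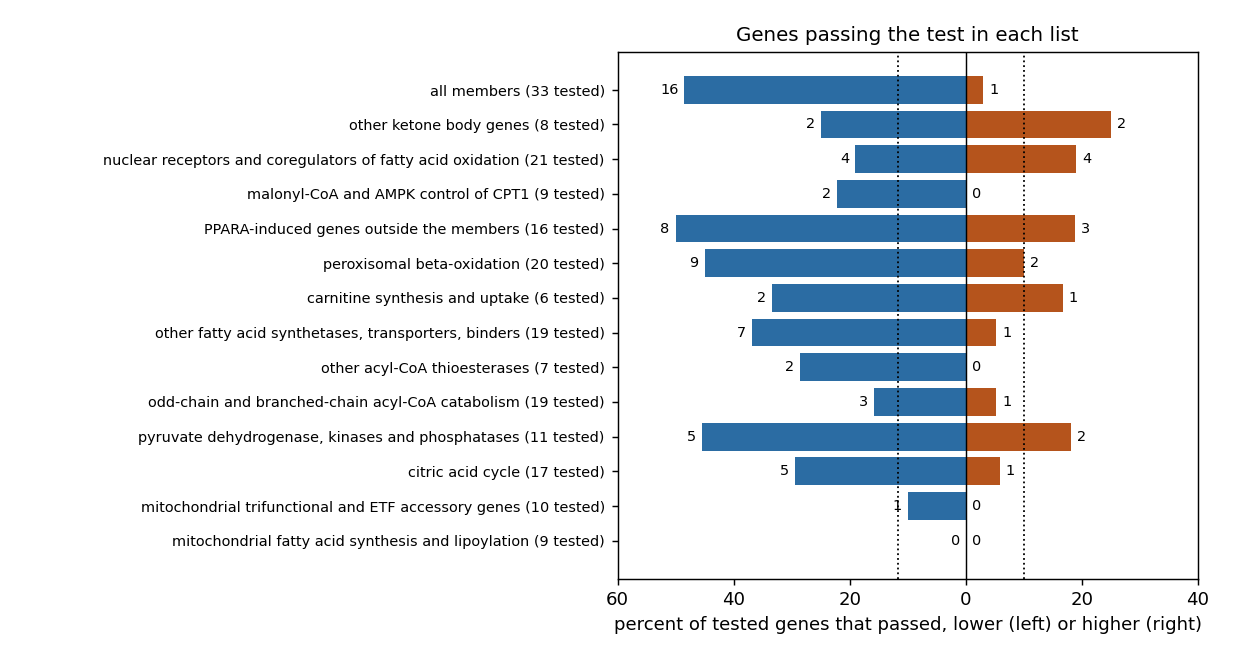
Bars give the percentage of tested genes that passed an edgeR adjusted p of 0.05, lower in PTPF-labelled libraries to the left and higher to the right, for the members and the 13 related lists, with the number of genes beside each bar. Dotted lines mark the shares over all genes tested, 11.6% lower and 10.1% higher, and the members reach 16 lower and 1 higher of 33.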

How the data were processed

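The authors deposited 1 table of raw counts per gene for the 6 libraries, with gene positions, lengths and names. CASAVA 1.8, HISAT2 2.0.5, featureCounts 1.5.0-p3 and GRCh38 are named, per the submitters' processing notes, while no strand setting or annotation release is stated. The gene length column was used as deposited for TPM only.

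Counts were fitted across all genes that passed edgeR's filterByExpr (minimum count 10) with edgeR 4.0.16 in R 4.3.3 (TMM factors, robust quasi-likelihood test, Benjamini-Hochberg adjustment over 17844 genes, threshold 0.05). Log2 fold changes are PTPF minus STATF, with 95% intervals. Total counts were 33225627 to 40796767, at which 3 counts, the limit that a count of 0 allows, equal 0.0735 to 0.0903 CPM, for counting error only. Members were matched by symbol, exon sharing was taken from GENCODE 29, and start windows from RefSeq (GRCh38.p14). All 58735 gene IDs of the table lie at the same positions in GENCODE 29.

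The members and the related lists were chosen with earlier results of these data known, so no list was tested as a set and no p was adjusted over a list alone. All members are named. Of each related list, up to 4 genes with the smallest adjusted p among those that passed are named, and others are marked where they appear. Values of some genes of these lists are not reported here. Alternatives were RLE, upper-quartile and library-total scaling, no filter, a filter of 50 counts in 3 libraries, DESeq2 1.42.0, limma-voom (limma 3.58.1), a replicate block, each library left out, and the mitochondrial genome left out. Leaving out members with over 10% shared exon bases or 50-base stretches was added after seeing the data. Scripts were tested on simulated data.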

Additional observations from a re-analysis of the deposited data

How the results depend on the processing

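Of the 17 members that passed, 13 did so under all 15 alternatives to the edgeR fit. ACSL1, ECHS1, ACOT1 and DECR1 did not. Besides the left-out libraries given above, ACOT1 ended with upper-quartile scaling (adjusted p = 0.0516) and DESeq2 (0.0522), and DECR1 with RLE scaling (0.0535), upper-quartile scaling (0.0646) and DESeq2 (0.0618). Of the members that did not pass, 6 did under at least 1 alternative: ACAD10, ACADL, SLC25A20, ETFA, ECI2 and FABP1. Scaling by library totals alone gave a median of -0.26 for the members and of -0.06 for all genes tested, 10 higher genes in the related lists instead of 16, and 1164 higher and 2981 lower genes over the whole table instead of 1801 and 2062. Without the filter 2 members were higher. The same replicate numbers occur in both groups. Deviations of same-numbered libraries had correlations of 0.03, 0.06 and 0.00 over genes, against -0.07 to 0.03 for differently numbered ones. Not every library matched its own number best. Correlations this weak cannot decide whether the numbers pair the libraries, and the main fit used no pairing. With the number as a replicate block 17 members were lower and 2 higher, FABP1 being the added higher one (adjusted p = 0.00101), and 4145 genes passed instead of 3863. With 1 library left out at a time, 13 to 18 members were lower and 1 to 2 higher (2 without PTPF replicate 2), the members' median was -0.26 to -0.15, and 9 to 19 genes of the related lists were higher (9 without STATF replicate 1). Leaving out the 10 members with over 10% shared sequence kept 23, of which 11 were lower and 1 higher, with a median of -0.17. Depth limits CPT1B, ACAD11 and OXCT1.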
